A study of Mus musculus with 56 samples.

Results

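Saa3, Clec4e and Irg1 belong to a set of 10 genes whose mRNA was higher in cultured mouse microglia given interleukin-33 (IL-33) than in cells kept in medium. The other 7 members were Sod2, Gpr84, Lcn2, Icam1, Cd69, Fscn1 and Hp. The members were chosen for their values in that culture contrast, so the culture values are given here as a description, and the question is how the 10 genes behaved in microglia taken from the brain. All 10 were found by symbol in each kind of deposited table, among 23420 genes of the bulk count table, 27933 symbols of the single-cell table and 23356 symbols of the FPKM tables. Irg1 is the older symbol of Acod1.

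The series held 56 samples of microglia, the resident macrophages of the brain. In culture there were 7 libraries given IL-33 and 7 kept in medium, all of wild-type B6 microglia from pups of postnatal day 5 to 8, selected with CD11b beads and kept 7 to 9 days in medium with 10 ng/ml M-CSF, and the stimulus was 200 ng/ml IL-33 for 3 h. The culture protocol also names a pretreatment of 1 h with 0.2 uM GSK-J4, a histone demethylase inhibitor, and does not say which cultures had it. Single-cell libraries of cortex (10x, 3' ends) came from ST2 KO and ST2 Het mice at postnatal day 9 (P9) and from wild-type animals, at P28 (day 28) or at P9, with 2 libraries in each of these 4 groups and B6 background throughout. ST2 is the IL-33 receptor, encoded by Il1rl1, and the ST2 Het controls carried 1 altered allele. Bulk libraries of freshly sorted cortical microglia compared 8 Tau-GFP plus with 8 Tau-GFP negative samples from B6/129 carriers of Mapttm1(EGFP)Klt, a knock-in that makes GFP from the Mapt (tau) gene, which neurons use, so that GFP in a microglial cell is a sign of material taken up from neurons. For these pups the sample labels give day 10, whereas the description of the design gives day 9. A further 10 TMRM high and 8 TMRM low samples came from P9 cortex of mice labelled B6/C57, and TMRM is a dye that gathers in mitochondria according to their membrane potential. The labels do not say which libraries came from separate animals or cultures, so the p-values measure the spread between libraries, which may be partly technical.

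IL-33 is an alarmin, a cytokine held in the nucleus and set free by stressed or damaged cells. It binds ST2 together with the shared chain Il1rap, and the signal runs through MyD88 and IRAK kinases to NF-kB and its inflammatory targets. The 10 members encode proteins of different kinds. Saa3, Lcn2 and Hp are secreted acute-phase and iron- or haemoglobin-binding proteins. Clec4e, Gpr84, Icam1 and Cd69 are receptors and surface proteins. Irg1 and Sod2 are metabolic enzymes in or near mitochondria, and Fscn1 is an actin-bundling protein.

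In GENCODE vM21 (GRCm38, which is mm10) the genes lie apart on the genome, except that Clec4e (chr6:123281789-123289870, minus strand) and Cd69 (chr6:129267325-129275436, minus strand) share a chromosome. Saa3 lies at chr7:46711998-46715700 (minus), Irg1 at chr14:103046977-103056573 (plus), Sod2 at chr17:13006846-13040063 (plus) and Gpr84 at chr15:103308235-103310612 (minus). Lcn2 lies at chr2:32384633-32388252 (minus), Icam1 at chr9:21015985-21028817 (plus), Fscn1 at chr5:142960343-142973185 (plus) and Hp at chr8:109575128-109579172 (minus). RefSeq promoter sequence (GRCm38.p6) was held for 8 of the 10 members, all but Cd69 and Hp. The 250 bases before the RefSeq start are shown for Saa3, Clec4e and Irg1, which were close to 0 in the single-cell and Tau-GFP libraries, and for Sod2 and Icam1, which fresh microglia expressed. Capitals mark matches to any of 5 motifs, and each sequence runs 5' to 3' on the strand of its gene up to the base before the start.
Saa3 (chr7:46715677-46715926, minus): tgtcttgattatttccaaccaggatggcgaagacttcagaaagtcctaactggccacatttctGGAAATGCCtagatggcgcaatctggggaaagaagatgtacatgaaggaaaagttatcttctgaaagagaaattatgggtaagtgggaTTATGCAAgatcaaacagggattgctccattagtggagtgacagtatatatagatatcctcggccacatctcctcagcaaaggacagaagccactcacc
Clec4e (chr6:123289872-123290121, minus): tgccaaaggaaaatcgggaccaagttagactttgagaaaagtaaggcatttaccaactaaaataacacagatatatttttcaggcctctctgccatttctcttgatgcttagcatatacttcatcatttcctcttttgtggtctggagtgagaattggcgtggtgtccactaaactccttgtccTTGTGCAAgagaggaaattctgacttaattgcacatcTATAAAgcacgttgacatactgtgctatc
Irg1 (chr14:103046762-103047011, plus): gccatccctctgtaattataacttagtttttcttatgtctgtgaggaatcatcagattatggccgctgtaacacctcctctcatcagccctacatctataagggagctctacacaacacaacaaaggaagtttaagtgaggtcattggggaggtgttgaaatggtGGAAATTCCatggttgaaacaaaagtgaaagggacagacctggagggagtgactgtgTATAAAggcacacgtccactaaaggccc
Sod2 (chr17:13007589-13007838, plus): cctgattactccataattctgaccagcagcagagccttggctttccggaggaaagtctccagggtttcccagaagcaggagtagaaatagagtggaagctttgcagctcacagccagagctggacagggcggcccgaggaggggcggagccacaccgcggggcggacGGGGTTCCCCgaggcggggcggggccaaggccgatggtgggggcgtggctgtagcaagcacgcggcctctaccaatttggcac
Icam1 (chr9:21015690-21015939, plus): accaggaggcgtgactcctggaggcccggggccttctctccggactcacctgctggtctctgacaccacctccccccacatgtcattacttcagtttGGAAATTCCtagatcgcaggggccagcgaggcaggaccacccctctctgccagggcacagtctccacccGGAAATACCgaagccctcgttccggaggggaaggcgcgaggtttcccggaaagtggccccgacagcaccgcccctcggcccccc

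The motifs were searched on both strands in the same 250 bases of all 32851 promoters of the table, and positions count back from -1, the base next to the start. The NF-kB consensus was found in Sod2 alone of the 8 members (GGGGTTCCCC, from -83) and is present in 7.25% of all promoters. A shorter kappa-B-like pattern, GGAAANNCC, which can overlap the consensus and is present in 4.93% of promoters, was found in Saa3 (GGAAATGCC, from -187), Irg1 (GGAAATTCC, from -85) and 2 times in Icam1 (GGAAATTCC from -153 and GGAAATACC from -84). The C/EBP-type pattern TTGCNNAA, present in 9.56% of promoters, was found in Saa3 (from -99), Clec4e (from -66) and Lcn2 (from -216). The AP-1 pattern TGANTCA was in none of the 8 windows and in 6.75% of promoters. TATAAA, present in 12.4%, was found in Clec4e (from -29), Irg1 (from -28) and Fscn1 (from -31), and Gpr84 held no match to any of the 5. These are matches of letters in one window, not bound sites.

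In culture, Saa3, Clec4e and Irg1 were abundant with IL-33 and clearly present without it. Levels of the count table are CPM, each gene's expected count scaled to its library's total, and can be set side by side for 1 gene but not between genes of different length. Saa3, a serum amyloid A protein made by macrophages in the acute phase, had 143 CPM at lowest, 201 at the median and 219 at highest in the 7 IL-33 libraries, against 34.4, 49.9 and 61.7 CPM in the 7 medium libraries. Clec4e (Mincle), a receptor for mycobacterial glycolipid and for a protein of dying cells, had 365, 401 and 465 CPM with IL-33, against 109.8, 113 and 178 CPM in medium. Irg1, the enzyme that makes itaconate from a Krebs cycle intermediate, had 334, 395 and 476 CPM with IL-33, against 85.0, 109.5 and 172 CPM in medium. For all 3 genes every IL-33 library lay above every medium library, as the choice of the set on this contrast implies.

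The other 7 members spanned a wide range of CPM, which depends on transcript length as well as on level. Sod2, the superoxide dismutase of the mitochondrial matrix, had a mean of 658 ± 34.0 CPM in IL-33 libraries and 289 ± 27.9 CPM in medium libraries (SD, n = 7 each, as below). Gpr84, a receptor for medium-chain fatty acids on myeloid cells, averaged 347 ± 61.8 CPM in IL-33 and 133 ± 15.5 CPM in medium libraries. Icam1, an adhesion molecule that binds leukocyte integrins, averaged 168 ± 12.8 CPM after IL-33 and 90.7 ± 8.50 CPM in medium libraries. The remaining 4 had the lowest CPM of the 10 members. Fscn1 (fascin) averaged 25.6 ± 3.42 CPM after IL-33 and 9.54 ± 1.31 CPM in medium, and Cd69, an early activation antigen of leukocytes, 24.5 ± 6.35 CPM after IL-33 and 6.28 ± 3.81 CPM in medium. Hp (haptoglobin, which binds free haemoglobin) averaged 17.9 ± 4.93 CPM after IL-33 and 6.24 ± 1.83 CPM in medium, and Lcn2 (lipocalin 2, which binds bacterial iron carriers) 7.20 ± 3.11 CPM after IL-33 and 1.39 ± 0.608 CPM in medium. The log2 fold changes with IL-33 lay between 0.87 for Icam1 and 2.36 for Lcn2, with a median of 1.60 over the 10 members beside -0.01 over all 10814 genes tested. In this contrast 7.71% of all genes were called at an adjusted p under 0.05, 4.21% higher and 3.5% lower, and all 10 members lay higher. Since the members were chosen on this contrast, nothing is read from that count.

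**Figure D1:**
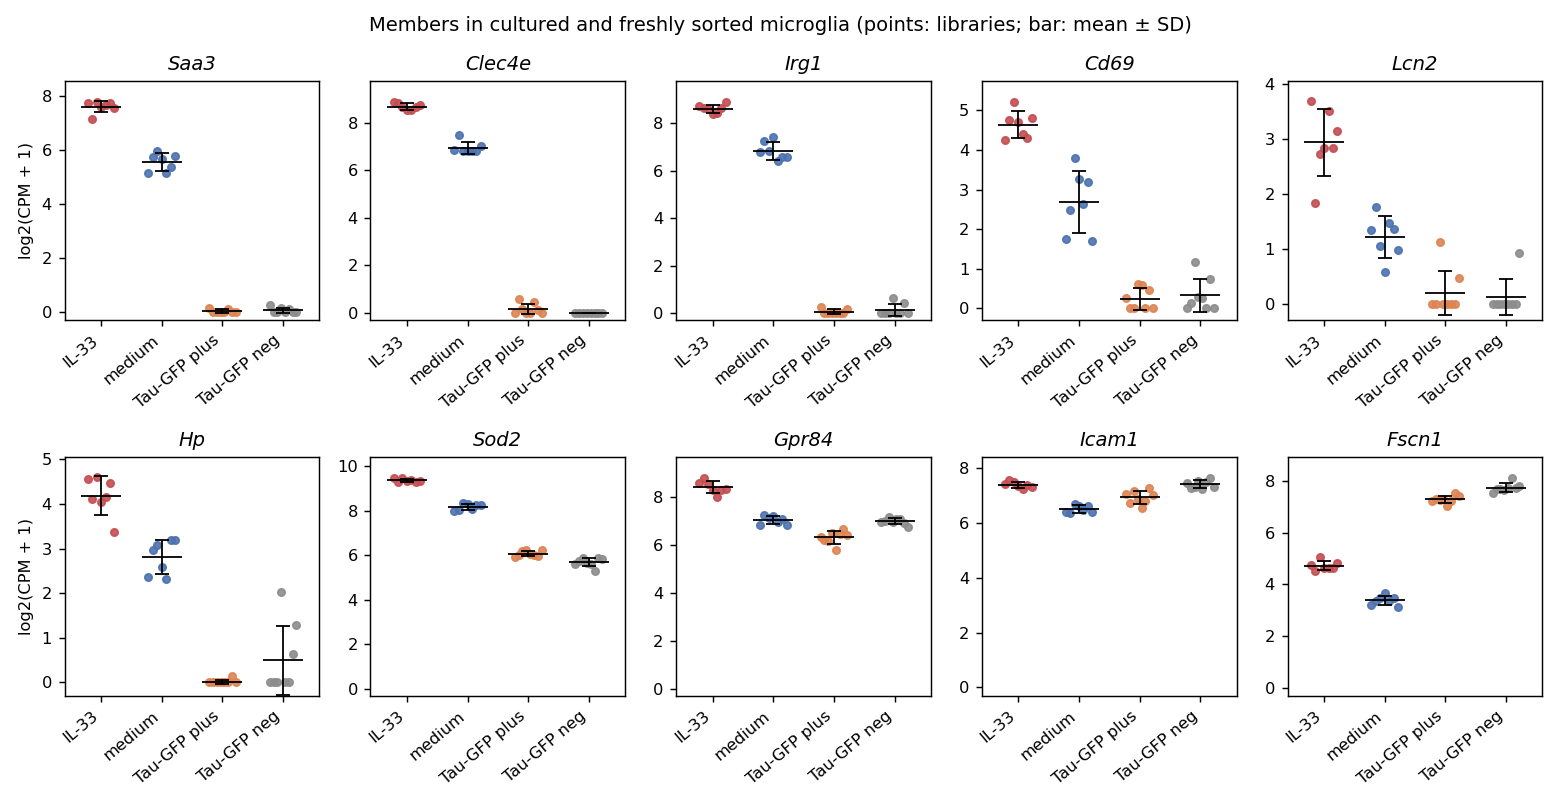
Level of each member, as log2 of CPM plus 1, in libraries of cultured microglia (IL-33, medium) and of freshly sorted cortical microglia (Tau-GFP plus, Tau-GFP negative). Points are libraries and the bar is the mean ± SD. Saa3, Clec4e, Irg1, Cd69, Lcn2 and Hp sit near 0 in both fresh groups, while Sod2, Gpr84, Icam1 and Fscn1 are present in all 4.

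Genes whose levels moved most like Saa3, Clec4e and Irg1 among the 14 culture libraries, after taking out the group means, were not other members. Over 7449 genes with a mean of at least 10 CPM, the highest Pearson correlations for Saa3 were with Gnl1 (0.84), Zdhhc21 (0.83) and Slc39a8 (0.82). For Clec4e they were with Naglu (0.91), Esd (0.89) and Fgr (0.88), and for Irg1 with Faim (0.83), Calu (0.83) and Tbl3 (0.80). Among the members, Saa3 correlated at 0.20 with Clec4e, 0.34 with Irg1, 0.595 with Sod2 and 0.551 with Hp. Clec4e and Irg1 correlated at 0.485 and Irg1 and Gpr84 at 0.476, and the lowest value was -0.254 for Clec4e and Cd69. These values describe 14 libraries that share their cultures' depth and handling. The leading genes were picked as the highest of many correlations over few libraries, and no correlation was tested.

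The wider lists give the setting of the culture contrast. Of 30 inflammatory genes, mostly NF-kB components and targets, 26 were tested and 19 were higher with IL-33, with Cxcl2 at a log2 fold change of 1.87 ± 0.17 (SE), Ptgs2 at 1.82 ± 0.38 and Il1b at 1.81 ± 0.26. Of 16 other acute-phase genes 5 were tested, and the complement gene C3 (0.89 ± 0.10) and the protease inhibitor Slpi (1.32 ± 0.35) were higher. Among 18 partner genes of the members, Clec4d (0.37 ± 0.04), Clec4n (0.45 ± 0.13) and Syk (0.47 ± 0.08), a pair of lectins and the kinase downstream of such receptors, were higher. S1pr1, a receptor for sphingosine 1-phosphate, was the 1 partner called lower (-0.25 ± 0.05), and it is named outside the rule because it completes the count. Of the IL-33 pathway genes Myd88 was higher (0.20 ± 0.05), while the receptor gene Il1rl1 was at 0.723 ± 0.533 CPM in IL-33 and 0.425 ± 0.325 CPM in medium libraries, too low to test.

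In the freshly sorted Tau-GFP libraries 6 of the 10 members were near 0. Over the 8 Tau-GFP plus libraries Saa3 had 2 counts in all, Irg1 3 and Clec4e 11. Over the 8 Tau-GFP negative libraries Saa3 had 4, Irg1 8 and Clec4e 0. Totals of the Tau-GFP libraries were 7996937 to 11285830 expected counts per library. A count of 0 over the Tau-GFP negative libraries allows a level of up to 0.0379 CPM (3 counts of their total, counting error only). Cd69, Lcn2 and Hp were also near 0, with highest values of 0.530, 1.16 and 0.0956 CPM in Tau-GFP plus libraries and 1.23, 0.885 and 3.08 CPM in Tau-GFP negative libraries. As a check of the cell type, 12 microglia markers summed to 7036 to 8081 CPM in IL-33 and 7378 to 8387 CPM in medium cultures, well below the 32291 to 73277 CPM of the fresh Tau-GFP libraries. Monocyte markers summed to 841 to 969 CPM in IL-33 and 645 to 1125 CPM in medium cultures. In fresh libraries they summed to 522 to 1824 CPM in Tau-GFP plus and 13.3 to 163 CPM in Tau-GFP negative samples. The part of such cells or states in the culture levels was not tested. The order of levels for each of Saa3, Clec4e and Irg1 in the count table was thus IL-33 culture, then medium culture, then both fresh groups, whose values overlapped. Culture and fresh libraries also differ in strain, age and handling, and no test was made between them.

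Sod2, Gpr84, Icam1 and Fscn1 were present in every fresh library, and their levels stood differently to culture. Fscn1 reached 131 to 182 CPM in Tau-GFP plus and 187 to 278 CPM in Tau-GFP negative libraries, above the highest IL-33 culture (32.4 CPM). Sod2 reached 59.1 to 74.6 CPM in Tau-GFP plus and 38.3 to 57.6 CPM in Tau-GFP negative libraries, below the lowest medium culture (248 CPM). The ranges of Icam1 in fresh libraries, 91.8 to 156 and 151 to 201 CPM, overlapped those in culture.

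The single-cell libraries show which cells hold the members. After a filter on cells, 15335 of 15507 barcodes remained and fell into 18 clusters, of which 13 with 14394 cells were microglia-like by their markers. Smaller groups were border macrophage-like (654 cells), endothelial-like (187), monocyte-like (68), neutrophil-like (21) and T or NK cell-like (11). The monocyte-like cluster was led by MHC class II genes (H2-Aa, Cd74) followed by the monocyte markers Plac8, Chil3 and Ly6c2. In all, 137 barcode sequences occurred in more than 1 library. Unique molecular identifiers (UMIs) count captured transcripts.

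Saa3 had 8 UMIs among all 15335 cells, 7 of them in microglia-like cells, and Irg1 had 3, all in microglia-like cells of 1 ST2 Het library. Clec4e had 45 UMIs, and 30 of these lay in the 68 monocyte-like and 11 in the 21 neutrophil-like cells, against 4 in 14394 microglia-like cells. Lcn2 had 396 UMIs, of which 376 (94.9%) lay in the 21 neutrophil-like cells and 14 in microglia-like cells. Lcn2 was among the 10 leading genes of that cluster and took part in the clustering, so its place there is a description. Hp had 202 UMIs, with 107 in monocyte-like, 77 in neutrophil-like and 16 in microglia-like cells, and Cd69 had 18, with 11 in microglia-like and 6 in monocyte-like cells. Border macrophage-like cells, the macrophages of the meninges and vessels, held 1 UMI of Saa3 and none of Irg1 or Clec4e in 654 cells.

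By contrast, microglia-like cells held 21896 of 22301 UMIs of Fscn1, 9550 of 9680 of Gpr84, 5573 of 5716 of Icam1 and 3743 of 4018 of Sod2. Their levels in microglia-like against border macrophage-like cells were 383 and 74.5 CPM for Fscn1, 167 and 34.1 CPM for Gpr84, 97.5 and 30.9 CPM for Icam1, and 65.5 and 72.9 CPM for Sod2. The border macrophage-like cells also held 7703 CPM of microglia markers, against 24908 to 38015 CPM in microglia-like clusters, and 249 and 226 of the 654 came from the 2 wild-type P9 libraries. Fscn1 also had 288 CPM in endothelial-like cells, a cluster with 11122 CPM of microglia markers. These levels are sums over the libraries and carry no test.

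**Figure D2:**
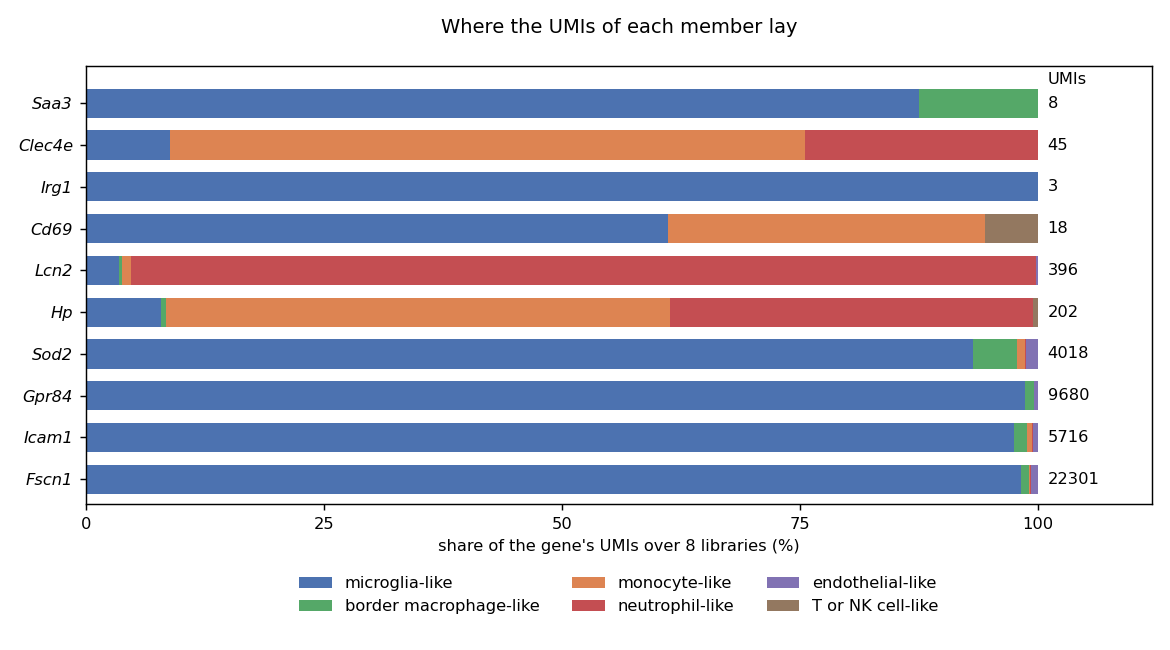
Share of each member's UMIs, in percent, that lay in cells of each class, over the 8 single-cell libraries, with the number of UMIs at the right. The bars of Lcn2, Hp and Clec4e are mostly neutrophil-like and monocyte-like, and those of Sod2, Gpr84, Icam1 and Fscn1 mostly microglia-like. The bars of Saa3 and Irg1 rest on 8 and 3 UMIs.

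In ST2 KO microglia at P9, Gpr84 was lower than in ST2 Het microglia. Gpr84 had 163 and 170.2 CPM in the 2 ST2 KO libraries, against 224 and 216 CPM in the 2 ST2 Het libraries, and the groups did not overlap. Its log2 fold change was -0.38 ± 0.06 (SE, adjusted p = 0.0214, edgeR quasi-likelihood test over 11598 genes with all 8 libraries in the fit). Icam1 had 87.2 and 81.7 CPM in ST2 KO against 101 and 124 CPM in ST2 Het libraries and was not called (-0.39 ± 0.09, adjusted p = 0.114). Fscn1 had 255 and 235 CPM against 264 and 283 CPM (adjusted p = 0.458), and Sod2 had 59.3 and 59.4 CPM against 69.7 and 63.8 CPM (adjusted p = 0.582). The 2 wild-type P9 libraries of the same fit had 173.8 and 174.3 CPM of Gpr84, just above ST2 KO and below ST2 Het. Their Icam1, at 93.6 and 82.2 CPM, overlapped ST2 KO and lay below ST2 Het. For Fscn1 (285 and 284 CPM) and Sod2 (75.6 and 76.6 CPM) they lay above both ST2 groups. The titles of all ST2 libraries carry the same date-like code, and those of all wild-type libraries carry a different one. Differences between wild-type and ST2 libraries therefore cannot be told apart from whatever that code marks, and no test was made between them.

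Thus 1 of the 4 members tested was lower and none was higher, where 0.604% of all genes were called, 0.31% higher and 0.293% lower, and the median log2 fold change was -0.26 over the 4 members and -0.00 over all genes. The 6 other members were too low to test, with 0 to 4 UMIs per library. Clec4e and Hp had no UMI in microglia-like cells of either group, which allows up to 0.348 CPM in ST2 KO and 0.220 CPM in ST2 Het cells. Irg1 had none in ST2 KO and 3 in ST2 Het cells. Without the clusters high in immediate early genes, an alternative added after the values were seen, Gpr84 was no longer called (-0.28, adjusted p = 0.146), and it was also not called without ST2 KO replicate 1 (adjusted p = 0.181), ST2 Het replicate 1 (0.125) or ST2 Het replicate 2 (0.0576).

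Immediate early genes, which tissue dissociation is known to induce, differed between these groups. The summed level of 17 such genes in microglia-like cells was 2715 to 2846 CPM in ST2 KO and 3544 to 3967 CPM in ST2 Het libraries. In the wild-type P9 libraries, whose titles carry a different date-like code, this sum was 2146 to 2210 CPM. In 2 microglia-like clusters (1280 cells) the summed level was over 5 times that of the median microglia-like cluster, at 13177 and 15482 CPM against 716 to 1214 CPM in the others. The larger had immediate early genes at its top, and the smaller mostly cell cycle genes beside Egr1. In these 2 clusters Icam1 had 265 and 187 CPM, against 52.5 to 115 CPM in the other 11. Within these 2 clusters Icam1 had 181 and 134 CPM in ST2 KO against 219 and 243 CPM in ST2 Het libraries, and in the other microglia-like clusters 65.1 and 69.5 CPM against 70.0 and 86.3 CPM. Gpr84 was lower in ST2 KO in both sets of cells, with 134 and 139.7 CPM against 262 and 220.2 CPM in the clusters high in immediate early genes and 170.4 and 177 CPM against 213 and 215 CPM in the others. The part of immediate early expression in the Gpr84 result was not tested beyond these values. Mural cell markers were also higher in the ST2 KO sums, at 31.6 to 34.6 CPM against 10.9 to 18.3 CPM in ST2 Het.

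Of the inflammatory list, 26 genes were tested. Of these, 6 were lower and none was higher, and the median log2 fold change was -0.45. The chemokine gene Cxcl10 had 3.25 ± 0.09 CPM in ST2 KO and 32.2 ± 2.57 CPM in ST2 Het libraries (-3.28 ± 0.27, adjusted p = 5.8e-05, edgeR), and the NF-kB inhibitor genes Nfkbiz (-1.52 ± 0.16, adjusted p = 0.000455) and Nfkbia (-1.41 ± 0.08, adjusted p = 4.5e-06) were lower too. Without the clusters high in immediate early genes, 1 of the 6 was still called lower, Cxcl10 (-3.94), while Nfkbia was at -0.54 (adjusted p = 0.0762) and Nfkbiz at -0.79 (adjusted p = 0.347). Il1rl1 itself did not separate the groups, with 6.18 to 7.35 CPM in ST2 KO and 5.45 to 6.72 CPM in ST2 Het libraries (adjusted p = 0.914). Which part of the gene the knockout removes is not given in the sources used here, so 3' reads of it do not check the labels. None of the acute-phase genes (2 tested), partner genes (14 tested) or IL-33 pathway genes (12 tested) was called.

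With age, the members that microglia express went different ways. Fscn1 had 709.5 and 688 CPM in the 2 wild-type P28 libraries, against 285 and 284 CPM in the 2 P9 libraries, a log2 fold change of 1.23 ± 0.06 (adjusted p = 1.1e-09, edgeR). Gpr84 fell to 115 and 102 CPM at P28, against 174 and 174 CPM at P9 (-0.75 ± 0.06, adjusted p = 4.5e-07). Sod2 fell to 54.5 and 52.2 CPM at P28, against 75.6 and 76.6 CPM at P9 (-0.58 ± 0.07, adjusted p = 1.5e-05). Icam1 had 102 and 106 CPM at P28 and 93.6 and 82.2 CPM at P9 and was not called (0.17 ± 0.09, adjusted p = 0.126).

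So 1 of 4 tested members was higher and 2 were lower at P28, where 53.7% of all genes were called, 27.6% higher and 26.2% lower, shares too large for these counts to stand apart. Icam1 turned on the cells kept: outside the clusters high in immediate early genes it had 89.0 and 93.8 CPM at P28 and 65.3 and 58.9 CPM at P9 (0.47, adjusted p = 0.000427, an alternative added after the values were seen), and without the clusters high in cell cycle genes its log2 fold change was -0.03 (adjusted p = 0.807). Inside the clusters high in immediate early genes Icam1 had 515 and 430.4 CPM at P28 and 351 and 284 CPM at P9. The immediate early sum over all microglia-like cells was 1689 to 1789 CPM at P28 and 2146 to 2210 CPM at P9. The P28 libraries held no cell in the clusters high in cell cycle genes.

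Lcn2, Hp and Clec4e had more UMIs at P28 than at P9. Over all kept cells Lcn2 had 215 and 151 UMIs in the P28 libraries and 1 and 0 in the P9 libraries, Hp 89 and 73 against 18 and 13, and Clec4e 17 and 26 against 1 and 0. At P9, Lcn2 also had 20 UMIs in ST2 KO replicate 2 and 9 in ST2 Het replicate 1. The P28 libraries held 13 and 5 of the 21 neutrophil-like and 25 and 28 of the 68 monocyte-like cells, and the part of these cells was not tested beyond these counts. Within microglia-like cells the same genes had 8 and 5 (Lcn2), 6 and 7 (Hp) and 2 and 2 UMIs (Clec4e) at P28, against 0 and 0, 0 and 3, and 0 and 0 at P9, beside neutrophil markers at 59.4 to 95.3 CPM at P28 and 5.60 to 8.40 CPM at P9. With all cells summed, 5 members were called higher at P28, among them Lcn2 (log2 fold change 8.54, adjusted p = 1.1e-05, edgeR), Clec4e (5.46) and Hp (2.84). In that fit 6251 of all 11846 genes tested were called, 3127 higher and 3124 lower.

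Of the inflammatory list 12 of 26 tested genes were higher and 9 lower at P28, and 5 were lower without the clusters high in immediate early genes or without P28 replicate 1. Ccl5 was at 14.5 ± 7.09 CPM at P28 and 0.155 ± 0.220 CPM at P9 (6.38 ± 0.62), beside T or NK cell markers at 24.8 to 27.4 CPM at P28 and 1.33 to 2.70 CPM at P9, whose part in it was not tested. Ccl5 was also among the top genes of the T or NK cell-like cluster. In the same sums border macrophage markers were at 34.6 to 34.7 CPM at P28 and 302 to 304 CPM at P9, and astrocyte markers at 183 to 185 CPM at P28 and 36.3 to 37.0 CPM at P9. Of the 6 astrocyte markers 3 to 4 were at 0 in a P28 library. The list also holds Slc1a3, which was among the top genes of some microglia-like clusters. Cxcl10 (-3.26 ± 0.33) and Tnf (-2.18 ± 0.18) were lower at P28. Of 14 partner genes 6 were higher and 6 lower, with the adhesion genes Vcam1 higher (1.82 ± 0.42) and Icam2 lower (-2.26 ± 0.19) and the lectin Clec4n lower (-2.18 ± 0.49). Of 12 IL-33 pathway genes 5 were higher and 2 lower, with Ikbkb, a kinase that frees NF-kB, higher (0.81 ± 0.06) and Sigirr, an inhibitory receptor of the family, lower (-2.18 ± 0.27). Il1rl1 had 2.03 to 5.42 CPM at P28 and 5.91 to 6.84 CPM at P9 (-0.84 ± 0.32, adjusted p = 0.0427), a call lost without P28 replicate 1 (-0.27, adjusted p = 0.453). The acute-phase genes Slpi (-1.60 ± 0.40) and Cfb (-2.38 ± 0.77) were lower, and Slpi was higher instead with all cells summed (1.23).

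**Figure D3:**
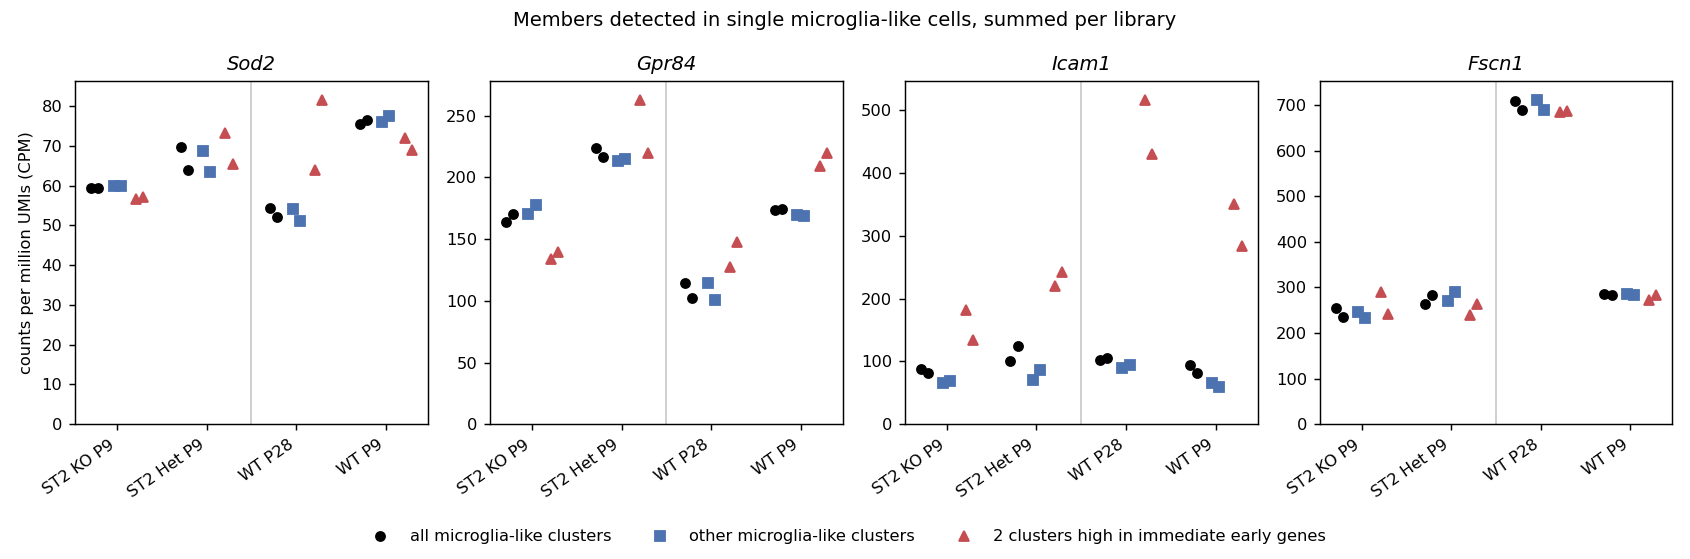
Level of Sod2, Gpr84, Icam1 and Fscn1 in CPM in the UMIs summed per library over all microglia-like clusters (black circles), over the 2 clusters high in immediate early genes (red triangles) and over the other microglia-like clusters (blue squares). Each symbol is 1 library, 2 per group. Gpr84 is lower in ST2 KO than in ST2 Het in all 3 sets, Fscn1 is higher at P28 than at P9, and Icam1 is highest in the clusters high in immediate early genes in every group.

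In Tau-GFP plus microglia Sod2 was higher than in Tau-GFP negative cells, and the other 3 measurable members were lower. Sod2 had 59.1 CPM at lowest, 65.1 at the median and 74.6 at highest in Tau-GFP plus libraries, against 38.3, 51.2 and 57.6 CPM in Tau-GFP negative libraries, and the groups did not overlap. Its log2 fold change was 0.35 ± 0.08 (adjusted p = 0.0029, edgeR, 12137 genes tested). Gpr84 had 54.8, 82.6 and 101 CPM in Tau-GFP plus libraries, against 109, 126 and 144 CPM in Tau-GFP negative libraries, again with no overlap (-0.71 ± 0.09, adjusted p = 1.4e-05). Fscn1 (-0.50 ± 0.07, adjusted p = 2.9e-05) and Icam1 (-0.51 ± 0.09, adjusted p = 0.000193) were lower as well, with groups that did not overlap for Fscn1 and overlapped for Icam1.

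That is 1 member higher and 3 lower of 4 tested, where 37.7% of all genes were called, 20.7% higher and 16.9% lower. Markers of other cells moved with this sort. Border macrophage markers summed to 2327 to 5775 CPM in Tau-GFP plus and 466.05 to 720.1 CPM in Tau-GFP negative libraries, monocyte markers to 522 to 1824 CPM and 13.3 to 163 CPM, and immediate early genes to 2183 to 5578 CPM and 1126 to 2060 CPM. Microglia markers summed to 32291 to 48330 CPM in Tau-GFP plus and 60313 to 73277 CPM in Tau-GFP negative libraries. Mural markers summed to 49.1 to 354 CPM in Tau-GFP plus and 6.59 to 44.1 CPM in Tau-GFP negative libraries, neuron markers to 50.5 to 156 CPM and 3.17 to 10.3 CPM, astrocyte markers to 90.4 to 247 CPM and 66.7 to 118 CPM, and endothelial markers to 21.2 to 2943 CPM and 13.2 to 351 CPM. Neutrophil markers were low in both groups (22.4 to 37.6 and 29.3 to 48.1 CPM). In the single cells above, Gpr84, Fscn1 and Icam1 were lower in border macrophage-like than in microglia-like cells and Sod2 was at a like level. The part of these cells in the member results was not tested, and in bulk samples fewer cells of a type and less RNA per cell cannot be told apart. The same members were called in the same directions without Tau-GFP plus replicate 3, which had the most endothelial signal, and without replicate 5, which had the most border macrophage and immediate early signal.

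Of the inflammatory list 8 of 26 tested genes were higher and 6 lower in Tau-GFP plus cells, led by the chemokines Ccl2 (3.57 ± 0.31) and Cxcl2 (6.27 ± 0.70) and by Cd40 (3.71 ± 0.83). Among the partners 9 of 17 were higher and 5 lower, and Cd163, the haptoglobin receptor and a border macrophage marker, had 347 ± 136 CPM in Tau-GFP plus and 6.99 ± 4.58 CPM in Tau-GFP negative libraries (5.60 ± 0.47), followed by Clec4n (5.13 ± 0.46) and the secreted dismutase Sod3 (3.68 ± 0.63). The copper carrier Cp was the 1 called acute-phase gene (2.56 ± 0.25). Of the IL-33 pathway genes 3 of 12 were lower, Irak2 (-0.43 ± 0.10), Chuk (-0.41 ± 0.11) and Irak1 (-0.20 ± 0.06), and Il1rl1 was at 13.4 ± 2.38 CPM in Tau-GFP plus and 15.5 ± 4.11 CPM in Tau-GFP negative libraries (adjusted p = 0.258).

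All 10 members could be tested in the TMRM sort, and 9 of them differed. Its values are FPKM, fragments scaled to transcript length and sequencing depth, which allow levels of different genes to be compared. In TMRM high libraries Gpr84 (120.4 ± 15.5 FPKM) and Icam1 (119.7 ± 8.89) led, followed by Fscn1 (38.3 ± 7.40), Saa3 (31.0 ± 13.6), Sod2 (20.02 ± 1.56), Irg1 (7.84 ± 2.12), Lcn2 (7.37 ± 10.8), Cd69 (3.43 ± 2.02), Clec4e (1.48 ± 0.66) and Hp (1.48 ± 1.02). Among neighbours in that order, ranges did not overlap between Icam1 and Fscn1 or between Sod2 and Irg1, and all other neighbours overlapped. In TMRM low libraries Lcn2 (50.9 ± 27.8 FPKM) stood next to Fscn1 (49.8 ± 6.95), and Saa3 (0.996 ± 1.38) was last.

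Saa3 had 17.9 FPKM at lowest, 26.6 at the median and 52.0 at highest in the 10 TMRM high libraries, against 0, 0 and 2.76 FPKM in the 8 TMRM low libraries, of which 5 were listed at 0. The groups were far apart, and the difference on the log2(FPKM + 1) scale was 4.18 ± 0.34 (SE, adjusted p = 1.5e-08, limma, 10714 genes tested). Irg1 had 5.33, 7.95 and 12.3 FPKM in TMRM high against 0.365, 2.07 and 5.29 FPKM in TMRM low libraries, with no overlap by a narrow gap (1.61 ± 0.24, adjusted p = 2.8e-05). Clec4e had 0.759, 1.36 and 2.61 FPKM against 0.0976, 1.15 and 2.55 FPKM, so its groups overlapped almost fully and it was not called (0.11 ± 0.22, adjusted p = 0.746).

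Sod2, Icam1, Cd69 and Gpr84 were also higher in TMRM high cells. Sod2 had 17.2, 20.04 and 22.1 FPKM in TMRM high, against 11.2, 12.2 and 16.3 FPKM in TMRM low libraries (0.63 ± 0.07, adjusted p = 1.9e-06). Icam1 had 106, 121 and 135 FPKM against 64.9, 75.9 and 93.4 FPKM (0.62 ± 0.07, adjusted p = 2.2e-06), and neither gene's groups overlapped. Cd69 (1.08 ± 0.28, adjusted p = 0.0064) and Gpr84 (0.30 ± 0.10, adjusted p = 0.0244) were higher with overlapping groups. The call of Gpr84 was lost when the library medians were set equal (0.26, adjusted p = 0.0803), an alternative added after the values were seen.

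Hp, Lcn2 and Fscn1 were lower in TMRM high cells. Hp had 0.594, 1.07 and 3.99 FPKM in TMRM high, against 6.39, 19.2 and 29.8 FPKM in TMRM low libraries, with no overlap (-2.97 ± 0.24, adjusted p = 1.6e-08). Lcn2 had 0, 4.22 and 34.6 FPKM against 15.4, 43.4 and 91.9 FPKM, and the groups overlapped (-3.41 ± 0.63, adjusted p = 0.000369). Fscn1 had 28.0, 37.4 and 50.2 FPKM against 41.0, 49.0 and 61.0 FPKM (-0.38 ± 0.11, adjusted p = 0.0136). In all, 6 of the 10 members were higher and 3 lower, where 30.3% of all genes were called, 20.4% higher and 9.84% lower, and the median difference was 0.46 over the members and 0.06 over all genes.

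Markers of other cells moved with the TMRM sort. Neutrophil markers, which include no member, summed to 16.3 to 798 FPKM in TMRM high and 676 to 2345 FPKM in TMRM low libraries, and monocyte markers to 13.3 to 32.1 and 16.8 to 63.1 FPKM. Of the 10 neutrophil markers 0 to 8 were listed at 0 in a TMRM high library and 1 to 3 in a TMRM low library. In the single cells above, Lcn2 and Hp lay mostly in neutrophil-like and monocyte-like cells, and the part of these cells in the lower Lcn2 and Hp values was not tested. Most of those single cells came from P28 libraries, whereas the TMRM samples were P9. The 2 wild-type P9 libraries held 0 and 1 neutrophil-like and 10 and 4 monocyte-like cells. Border macrophage markers went the other way, at 195 to 282 FPKM in TMRM high and 54.4 to 138 FPKM in TMRM low libraries, and immediate early genes were lower in TMRM high, at 4534 to 6715 against 7862 to 9628 FPKM. The 654 border macrophage-like single cells held 1 UMI of Saa3 and none of Irg1, but all single cells together held only 8 and 3. These UMIs are too few to place either gene in a cell class. The part of border macrophages or of immediate early expression in the TMRM values was not tested. Without TMRM high replicate 6, which had the most neutrophil signal of its group, or without TMRM low replicate 2, which had the most neutrophil and endothelial signal of its group, the same numbers of members were called, 6 higher and 3 lower.

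**Figure D4:**
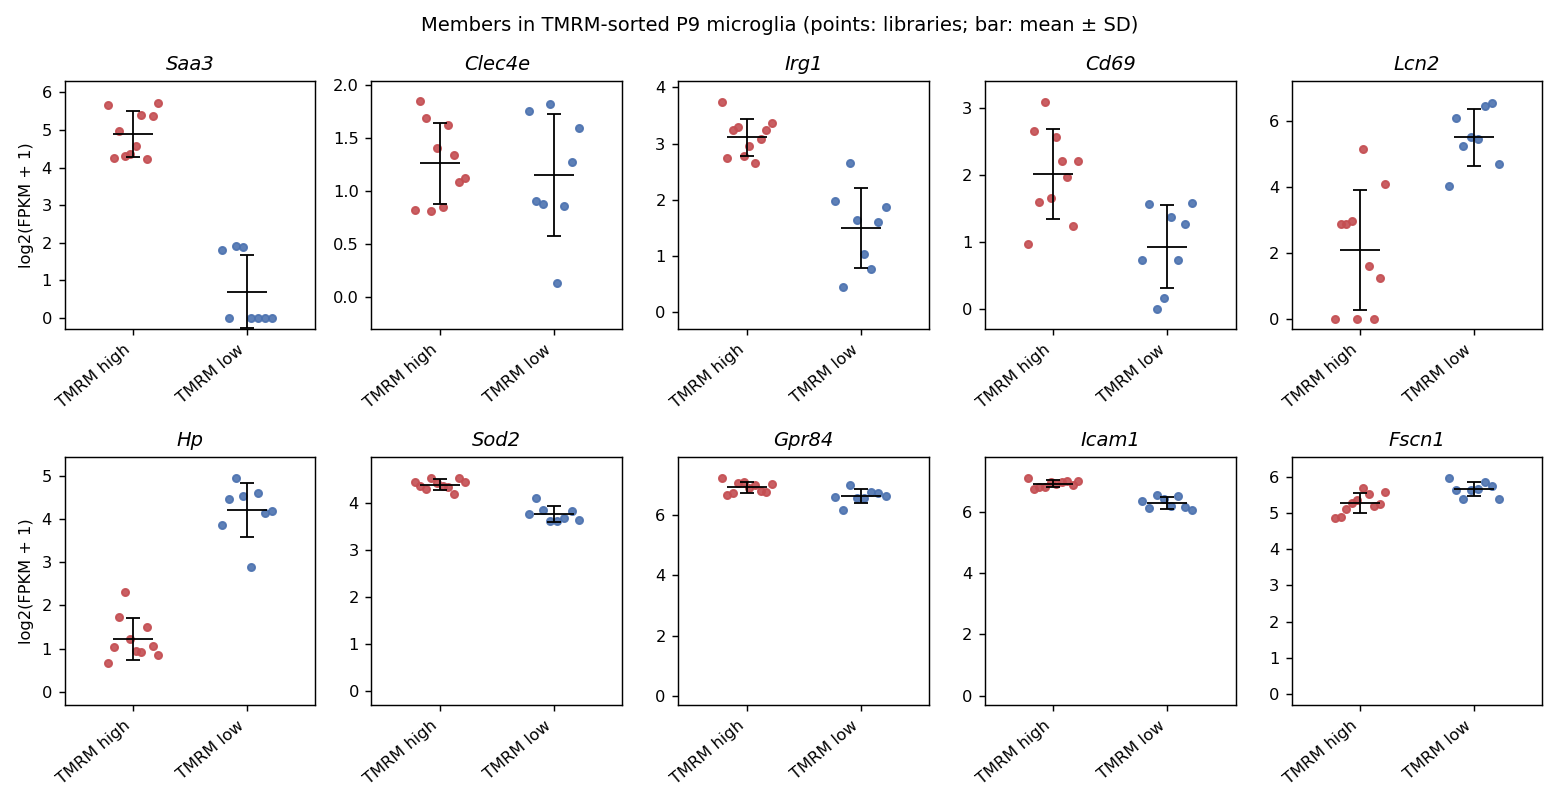
Level of each member, as log2 of FPKM plus 1, in TMRM high (10) and TMRM low (8) libraries of P9 cortical microglia. Points are libraries and the bar is the mean ± SD. Saa3 and Irg1 are higher in TMRM high with no overlap, Clec4e overlaps, and Lcn2 and Hp are lower in TMRM high.

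Most of the inflammatory list was higher in TMRM high cells too. Of 28 genes tested 18 were higher and none lower, with a median difference of 0.43. Cxcl2 had 328 ± 37.4 FPKM in TMRM high and 37.8 ± 11.6 FPKM in TMRM low libraries (3.13 ± 0.13), Cxcl1 55.4 ± 11.1 and 2.68 ± 2.26 FPKM (4.17 ± 0.29), and Ccl5 54.2 ± 17.8 and 2.46 ± 1.93 FPKM (4.20 ± 0.34). Of 4 acute-phase genes tested Il1rn, the natural IL-1 receptor antagonist (1.88 ± 0.27), and Slpi (1.24 ± 0.30) were higher. Of 17 partners 5 were higher, led by the beta-glucan receptor Clec7a (2.39 ± 0.17), and 3 lower, among them the haem oxygenase Hmox1 (-0.72 ± 0.12) and the adaptor Card9 (-0.77 ± 0.20). In the IL-33 pathway Irak4 (0.40 ± 0.10) and Ikbkg (0.25 ± 0.09) were higher, and Il1rl1 was at 1.38 ± 0.391 and 1.73 ± 0.561 FPKM (adjusted p = 0.313).

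Side by side, the members took different directions in the in vivo comparisons. Saa3 and Irg1 were higher in TMRM high than in TMRM low cells, in which Irg1 was above 0 in all 8 libraries, and both were near 0 in the single-cell and Tau-GFP libraries. Clec4e was at or below 2.61 FPKM in the TMRM libraries and was nearly absent from single microglia-like cells. Icam1 was higher in TMRM high and lower in Tau-GFP plus cells, and Fscn1 was higher at P28 and lower in Tau-GFP plus and TMRM high cells. Gpr84 was lower in P28 and Tau-GFP plus cells. Gpr84 was also called higher in TMRM high cells and lower in ST2 KO than in ST2 Het cells. These last calls were each lost under some alternatives. Sod2 was higher in TMRM high and Tau-GFP plus cells and lower at P28. The tables were normalised separately, so only directions and not levels are set across them here.

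**Figure D5:**
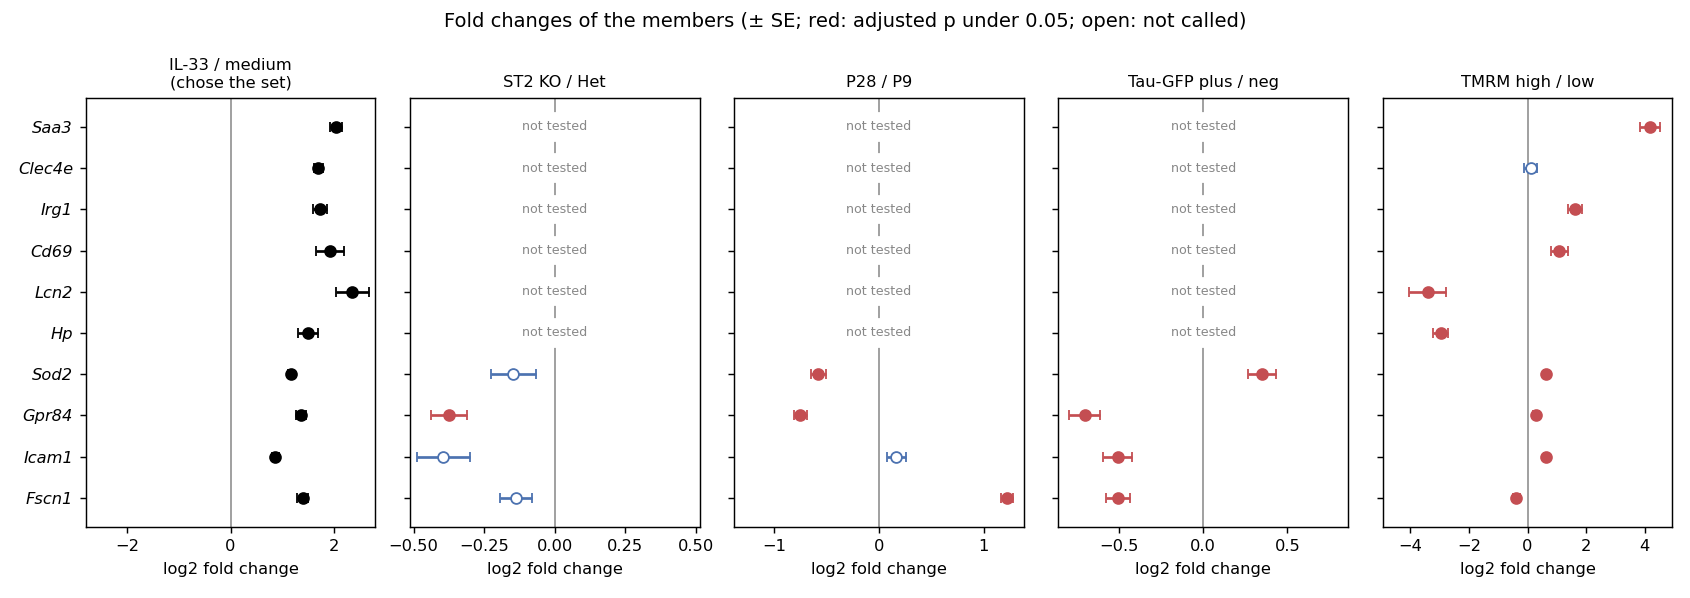
Log2 fold change of each member, with its SE, in the 5 comparisons, the first named group over the second. Red points have an adjusted p under 0.05, open points do not, and black points belong to the culture contrast that chose the set. The horizontal axes differ in range. All 10 members are above 0 in culture, only 4 could be tested in 3 of the in vivo comparisons, and in the TMRM sort 6 are higher and 3 lower.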

How the data were processed

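Bulk values of cultured and Tau-GFP libraries were expected counts from RSEM after Bowtie2, as deposited by the authors per the submitters' processing notes, which also name mm10 and give no version for either tool. Its columns numbered 35, of which 30 matched a sample and 5 were not used. TMRM values were FPKM made by the authors with TopHat2 2.0.10 and Cufflinks 2.0.2, per the submitters' processing notes, and 1 file ended early, so 513 symbols lacked a value there. Single-cell UMI counts were deposited by the authors as Cell Ranger matrices, per the submitters' processing notes. No source used here gives annotation versions or strand settings.

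Expected counts were rounded (25.344% were not whole) and tested with edgeR 4.0.16 (R 4.3.3; TMM scaling, filterByExpr, quasi-likelihood test). FPKM were tested as log2(FPKM + 1) with limma 3.58.1 where the mean reached 1 FPKM. Cells with at least 500 genes and under 10% mitochondrial counts were clustered (scanpy 1.11.5, Leiden), classes were named from marker lists, no doublet caller was run, and UMIs of microglia-like cells were summed per library and tested with edgeR. Cell names were rebuilt here and may differ from the study's. Sums were 4080229 to 10530206 UMIs per library. Tests were two-sided with Benjamini-Hochberg adjustment over all genes tested at 0.05. edgeR standard errors were taken as the size of the log2 value over the root of the F statistic. CPM were computed here from the deposited counts without TMM factors. Limits for a count of 0 use 3 counts and cover counting error only. The main edgeR and limma fits were tested on simulated data. The clustering, correlations, motif search, outlier test and alternative fits were not.

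The members and gene lists were chosen with earlier results of these data known. Of each list the genes named are those called with the largest fold changes, up to 3 per list and comparison, with Il33, Il1rl1 and Il1rap always given, and the genes most like Saa3, Clec4e and Irg1 are the 3 with the highest correlation. Alternatives were DESeq2 1.42.0, other scaling, filters and pseudocounts, a replicate block, other sets of cells, each library of a single-cell comparison left out, and 4 single Tau-GFP or TMRM libraries left out. Coordinates are from GENCODE vM21 and promoters from RefSeq GRCm38.p6.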

Additional observations from a re-analysis of the deposited data

Results flagged for a closer look

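A test for a single library standing apart from its group was run on 59 sets of a member's values in 1 group, and 10 sets had such a library, where chance gives about 1 in 20 for values without ties. Where all other libraries are at 0, any count stands apart, so this rate does not hold for genes mostly at 0. In TMRM high libraries, Hp was highest in replicate 4 at 3.99 FPKM, with the next at 2.30 FPKM, and Lcn2 was highest in replicate 6 at 34.6 FPKM, with the next at 16.01 FPKM. That replicate 6 also had the highest sum of neutrophil markers of its group (798 FPKM). Sod2 was highest in TMRM low replicate 2, at 16.3 FPKM against 13.4 FPKM in the next library.

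In culture, Saa3 was lowest in IL-33 replicate 2, at 143 CPM against 188 CPM in the next library, and Clec4e was highest in medium replicate 2, at 178 CPM against 129 CPM. Fscn1 was highest in Tau-GFP negative replicate 6, at 278 CPM against 220.2 CPM. The other 4 were genes near 0 in the Tau-GFP libraries. Hp had 0.0956 CPM in Tau-GFP plus replicate 7 with all others at 0, and Lcn2 had 1.16 CPM in Tau-GFP plus replicate 3 with the next at 0.375 CPM. Hp had 3.08 CPM in Tau-GFP negative replicate 4 with the next at 1.44 CPM, and Lcn2 had 0.885 CPM in Tau-GFP negative replicate 8 with all others at 0.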

How the results depend on the processing

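Of the log2 fold changes of members under alternatives, 167 kept their direction and their side of the threshold, 6 became called, 6 lost their call and 1 turned. For ST2 KO against ST2 Het, without the filter on low counts 2 members and 11 inflammatory genes were lower, with 367 genes called in all against 70. Without the clusters high in immediate early genes 0 members and 1 inflammatory gene were lower, with 33 genes called. Leaving out 1 library gave 0 to 1 members and 3 to 6 inflammatory genes lower, with 24 genes called without ST2 KO replicate 1, 28 without ST2 Het replicate 2 and 155 without ST2 KO replicate 2. All cells summed gave 44. At P28 against P9, 3 members were higher without the filter, 5 with all cells summed and 2 without the clusters high in immediate early genes. Over all genes, those fits called 3618 of 18031, 3127 of 11846 and 3135 of 11404 higher. The inflammatory genes lower at P28 were 5 without the clusters high in immediate early genes and 5 to 7 with 1 library left out. In Tau-GFP plus cells 2 members were higher without the filter, Sod2 and Clec4e (3.52, adjusted p = 0.033, edgeR). The Clec4e call rests on 11 counts in Tau-GFP plus and 0 in Tau-GFP negative libraries. Hp was called lower as well (-4.69), and over all genes that fit called 3393 of 20815 higher and 2025 lower. In TMRM high cells 1 inflammatory gene was lower with library medians set equal, and 0 to 1 with 1 library left out. Signs turned at P28 for Icam1 (-0.0302 without cell cycle clusters) and Slpi (1.23 with all cells), and for Il1rap, never called, at P28 (-0.0124 without cell cycle clusters, -0.0063 without immediate early clusters, -0.0517 to 0.25 with 1 library left out) and in ST2 KO (-0.41 to 0.14 with 1 library left out). The causes were not tested.

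Replicate numbers are shared between groups, but same-numbered libraries did not deviate together throughout (correlations over 0.1 in 2 of 7 culture pairs, 6 of 8 Tau-GFP pairs and 2 of 8 TMRM pairs, 0.0974 for ST2 KO and Het, -0.0063 for P28 and P9), so the numbers were not taken as pairs. For Tau-GFP, 5 of 8 libraries of each group correlated best with their own number, a hint from the data and not the design. For the ST2 groups the labels give a hint too. The barcode prefixes of replicate 1 of ST2 KO and of ST2 Het both carry the word redo, and those of replicate 2 do not. What the word marks is not stated, and the main ST2 fit used no block. With the number as a replicate block and the 4 wild-type libraries left out of the fit, members lower in ST2 KO were 2 and inflammatory genes lower 12, with 343 genes called in all. The same 4 libraries without the block gave 1, 6 and 78. In the TMRM sort 5 members were higher and 3 lower under the block, Gpr84 lost its call (adjusted p = 0.0603, limma), and 16 inflammatory genes were higher and 1 lower. In Tau-GFP plus cells the block gave 1 member higher and 3 lower, at P28 1 higher and 2 lower, and in culture a member median of 1.61. Members with a few counts per library were too low to test in the main fits of the Tau-GFP and single-cell libraries.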

Other observations

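From the inflammatory list, 4 more genes were higher in TMRM high cells beside Saa3 and Irg1, named here after their values were seen. Tnf had 385 ± 38.3 FPKM in TMRM high and 94.3 ± 18.4 FPKM in TMRM low libraries, Cxcl10 342 ± 71.8 and 53.8 ± 12.4 FPKM, Il1b 72.6 ± 8.74 and 17.9 ± 9.52 FPKM, and Nfkbiz 153.8 ± 7.82 and 75.9 ± 7.77 FPKM (SD, n = 10 and 8), and all 4 were called higher by limma. The sum of immediate early genes was lower in TMRM high (4534 to 6715 FPKM, against 7862 to 9628 FPKM in TMRM low).

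The cytokine gene Il33 itself had 2.26 ± 0.769 CPM in IL-33 and 1.76 ± 1.065 CPM in medium cultures and was not called (adjusted p = 0.635, edgeR). It had no UMI in wild-type microglia-like cells of either age and reached 10.4 CPM in 1 Tau-GFP plus library, against at most 0.330 CPM in Tau-GFP negative libraries. The receptor chain gene Il1rap was not called in any of the 5 comparisons, with log2 fold changes from -0.17 in ST2 KO to 0.20 in IL-33 cultures.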
